A study of Mus musculus with 12 samples.

Results

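Tumours treated with the nanobody construct VHH-OD-Fc were compared with tumours treated with control Fc in bulk RNA-seq. The comparison covers 6 of the 12 libraries of the series, 3 per group. Genes entered it when their FPKM (fragments per kilobase of transcript, scaled to the library's total) was at least 1 in at least 3 of these 6 libraries, which kept 13281 of 41009 genes. Both groups carried tumours of mCherry-4T1 cells, a mammary carcinoma line of BALB/c origin, grown from an injection of 5 × 1e+06 cells into the fat pad of the mammary gland of female BALB/c mice, which were 4 to 5 weeks old. Treatment was intraperitoneal and started 7 days after the cells were placed, with Ctrl-Fc at 5 mg/kg (group Ctrl) or VHH-OD-Fc at 3.5 mg/kg, so the groups differ in dose as well as in the binding arm. The remaining groups received 2.6 mg/kg of VHH-PD-1-Fc, or 4.3 mg/kg of the construct with both arms, VHH-OD-PD-1-Fc. The labels do not spell out OD, and the title of the series speaks of nanobodies against digoxin-like substances made by the body. The design text of the series describes Lewis lung tumours and digoxin, which are not what the sample labels describe. Nothing in the labels says that the libraries of a group came from separate mice, so the p-values speak of the spread among these libraries, and that spread may be technical.

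A nanobody is the single variable domain (VHH) of a camelid heavy-chain antibody, and fusion to an Fc part gives it a longer life in blood. Digoxin is a cardiac glycoside that inhibits the sodium pump Na,K-ATPase. Interferon gamma from T cells and natural killer (NK) cells acts through a JAK kinase cascade and IRF1 on tumour cells and macrophages, where it induces chemokines, guanylate-binding proteins (GBPs), immunity-related GTPases (IRGs), antigen presentation and the PD-1 ligand Cd274. Type I interferons induce an overlapping antiviral programme.

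Of the 10 named genes of largest test statistic that were lower with VHH-OD-Fc, the first 5 were interferon gamma targets (Irgm2, Gbp3, Ly6i, Cxcl9 and Iigp1), but no gene passed the test. These 10, and 10 higher genes given below, were taken only from genes whose groups did not overlap, as defined below. Unnamed gene models and some other types were left out. With limma and Benjamini-Hochberg adjustment over the 13281 genes, 0 were called higher and 0 lower, each 0% of the genes tested, and the smallest adjusted p was 0.777. At an unadjusted p under 0.05 there were 553 genes, of which 180 were higher (1.36%) and 373 lower (2.81%). A run of limma voom on reads recovered from the FPKM values also called 0 genes, with 482 at an unadjusted p under 0.05. The values that follow are therefore measurements without a call. Groups are said not to overlap when all 3 libraries of one lie above all 3 of the other, which held for 451 genes higher with VHH-OD-Fc (3.40%) and 926 genes lower (6.97%). The difference between groups is given on the log2(FPKM + 1) scale, VHH-OD-Fc minus Ctrl, which understates changes of low genes. Its median over all genes was -0.02, with 5711 genes positive (43.0%) and 7570 negative (57.0%), and 5% of genes lay below -0.32 and 5% above 0.27.

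The intervals bounded most genes, but only loosely. The standard error (SE) of a difference had a median of 0.12 and the 95% interval reached a median of 0.28 to either side. For 12348 genes (93.0%) the interval lay wholly within 1 log2 unit of 0. That margin is wide beside the differences of most genes, and on this scale a gene near 1 FPKM can hardly fall by so much. A difference above 1 was measured for 62 genes and one below -1 for 38, and none of these passed the test. In the plot of the difference against the level, the interferon genes lie in the lower part of the cloud at every level.

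**Figure D1:**
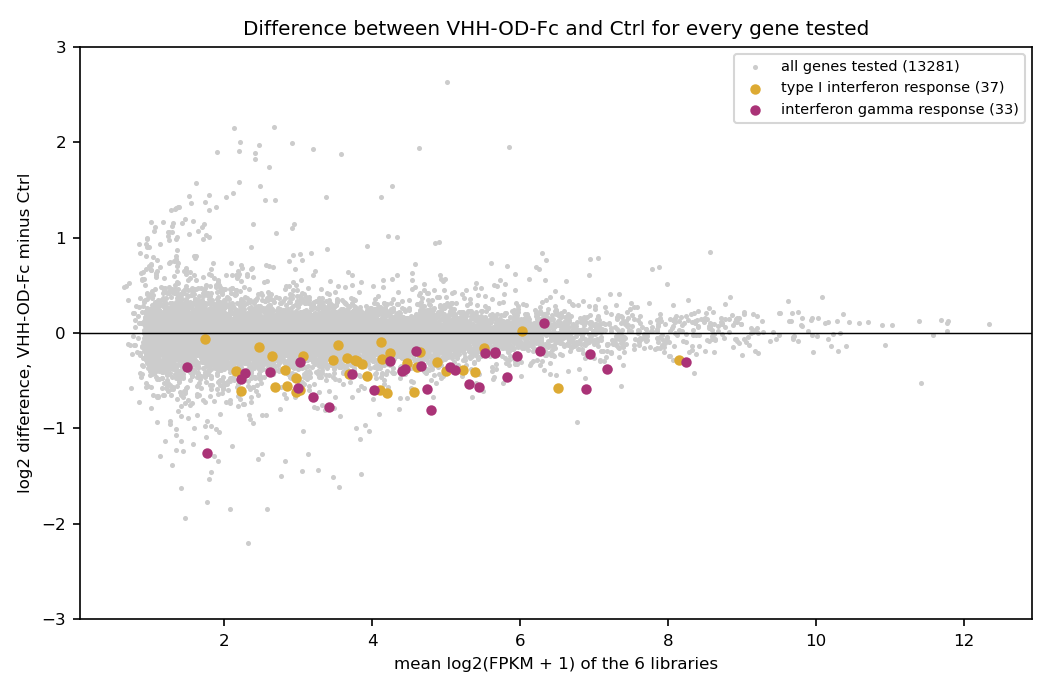
Difference between VHH-OD-Fc and Ctrl (vertical axis, log2) against the mean level of the 6 libraries (horizontal axis, log2(FPKM + 1)), 1 point per gene tested (13281). The 37 type I interferon genes and the 33 interferon gamma genes lie mostly below 0, with medians of -0.33 and -0.39.

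The depth was similar in both groups. Whole reads recovered from the steps of the FPKM values came to between 47.0 and 60.9 M per library (M stands for 1e+06), and of the low values of genes with 1 transcript 94.9% to 95.5% were whole within 0.05 of a read. Between any pair of libraries, Pearson's r over genes was between 0.943 and 0.990, and its highest value joined Ctrl 2 with VHH-OD-Fc 3, libraries of different groups. A pair of libraries stood apart from the rest. Ctrl 1 lay at one end of the first principal component (45.1% of the variance), and its summed tumour epithelial markers (Epcam, Krt7, Krt8, Krt18 and Krt19) were 1190 FPKM against 2058 to 2688 in the other 5 libraries. VHH-OD-Fc 2 lay at one end of the second component (28.6%), and its summed skeletal muscle markers (Acta1, Ckm and Mylpf) were 1669 FPKM against 1.73 to 184 in the others. Defining markers of tumour epithelium, leukocytes, macrophages, neutrophils, fibroblasts and endothelium were present in all 6 libraries. Keratin 1 of skin was at 0 to 0.009 FPKM. Several results that lean on Ctrl 1 or VHH-OD-Fc 2 are given with and without them below, and other values may lean on them too.

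Most interferon gamma targets were lower with VHH-OD-Fc. Of 33 such genes measured, 0 passed the test, 32 had a negative difference, and the median was -0.39 beside -0.02 for all genes. For 19 of the 33 the groups did not overlap in the lower direction, a share of 57.6% beside 6.97% of all genes, and for 0 in the higher direction. Leaving out a library can only keep or raise such a count, so it is read against all genes in the same setting. Without Ctrl 1 the share was 66.7% beside 10.2% of all genes, without VHH-OD-Fc 2 it was 63.6% beside 12.6%, and without both it was 75.8% beside 17%. The median of the list stayed between -0.45 and -0.35 over all 18 alternative settings. No test was run over this or any other list, and members of a list can rise and fall together in a library. Counts of members are thus not independent evidence, here or below. In a bulk tumour, fewer cells of a type and less RNA per cell cannot be told apart, which holds for every gene group here.

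Promoters of these genes were searched for sequence motifs tied to interferon. Interferon-stimulated response elements (ISRE), bound by IRF proteins, hold the core GAAANNGAAA, and gamma-activated sites (GAS) have the form TTCNNNGAA. Both were searched on both strands in the 250 bases before each RefSeq start. The sequence was GRCm38.p6, the C57BL/6J reference, while the mice were BALB/c. Matches were allowed to overlap, and a gene held a motif when any of its starts did. Promoters of 3 of the lower genes of largest statistic and of the IRG gene Igtp are printed in the direction of transcription, with matches to either motif in capitals. Gbp3 lies at chr3:142559794-142560043 on the plus strand, Igtp at chr11:58199306-58199555 on the plus strand, Fcgr4 at chr1:171018676-171018925 on the plus strand and Cxcl9 at chr5:92328080-92328329 on the minus strand.
Gbp3: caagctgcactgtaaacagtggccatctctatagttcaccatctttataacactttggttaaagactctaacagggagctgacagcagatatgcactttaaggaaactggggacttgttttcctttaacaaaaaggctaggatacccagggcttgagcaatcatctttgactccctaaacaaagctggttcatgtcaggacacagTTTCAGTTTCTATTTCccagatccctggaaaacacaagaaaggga
Igtp: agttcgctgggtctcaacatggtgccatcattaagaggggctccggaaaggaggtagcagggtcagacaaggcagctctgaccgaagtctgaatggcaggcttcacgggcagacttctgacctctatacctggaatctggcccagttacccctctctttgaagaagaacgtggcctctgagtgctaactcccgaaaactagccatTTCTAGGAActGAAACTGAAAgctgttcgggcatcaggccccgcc
Fcgr4: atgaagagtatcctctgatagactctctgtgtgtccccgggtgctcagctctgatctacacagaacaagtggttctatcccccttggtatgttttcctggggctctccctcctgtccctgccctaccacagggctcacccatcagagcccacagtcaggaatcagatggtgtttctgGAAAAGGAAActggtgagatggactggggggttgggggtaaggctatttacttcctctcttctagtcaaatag
Cxcl9: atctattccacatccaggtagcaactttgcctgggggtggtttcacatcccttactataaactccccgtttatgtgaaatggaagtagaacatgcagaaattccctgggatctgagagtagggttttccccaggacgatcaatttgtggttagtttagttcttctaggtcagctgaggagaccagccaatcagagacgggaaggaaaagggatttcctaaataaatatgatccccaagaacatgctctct

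In Gbp3, 2 overlapping ISRE cores begin 45 and 39 bases before the start, both on the opposite strand. Igtp holds a GAS that begins 45 bases before the start and an ISRE core that begins at 34, separated by the letters between the capitals. Fcgr4 holds 1 ISRE core that begins at 73, and Cxcl9 has no match to either motif in this window. Another start of Gbp3, not printed, has no match either. Of the 10 lower genes of largest statistic 6 had an entry, with an ISRE core in 3 and a GAS in 1. Among all 27025 genes with a promoter entry, 3.46% held an ISRE core and 8.13% a GAS, and among the 9282 tested genes with an entry the shares were 3.38% and 7.06%. Of the 33 interferon gamma genes 21 had an entry, of which 11 (52.4%) held an ISRE core and 10 (47.6%) a GAS. Of the 37 type I interferon genes measured 26 had an entry, with an ISRE core in 12 (46.2%) and a GAS in 5 (19.2%). Of the 13 measured genes of cytotoxic lymphocytes 10 had an entry, with an ISRE core in 1 and a GAS in 1, and the difference from the interferon lists was not tested. These lists were drawn up from genes known to respond to interferon, so the motifs describe the lists and not the effect of the nanobody.

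The IRG gene Irgm2, whose product guards membranes against vacuolar pathogens, had the largest statistic of the named lower genes without overlap. Its level was 33.4, 30.9 and 31.2 FPKM in Ctrl 1 to 3 (mean 31.8 ± 1.38 SD, n = 3) and 22.0, 20.4 and 20.3 FPKM in VHH-OD-Fc 1 to 3 (mean 20.9 ± 0.986 SD, n = 3). The groups lay far apart relative to their spread, and 3825 to 6225 reads stood behind each value. The difference was -0.58 (SE 0.07, limma adjusted p = 0.777). Igtp, another IRG, was at 143, 151 and 139 FPKM in Ctrl and at 111, 93.9 and 83.6 FPKM with VHH-OD-Fc, a difference of -0.59 (SE 0.12). Every Ctrl library exceeded every VHH-OD-Fc library for Igtp, and the same held for Irgm1 (-0.39), Tgtp2 (-0.35) and Iigp1 (-0.46).

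The GBPs, GTPases that attack the membranes of intracellular pathogens, gave a similar picture. Gbp3 was at 54.8, 52.5 and 48.3 FPKM in Ctrl (mean 51.9 ± 3.29 SD) and at 33.5, 35.1 and 35.5 FPKM with VHH-OD-Fc (mean 34.7 ± 1.05 SD), a difference of -0.57 (SE 0.08, limma adjusted p = 0.777). Gbp4 differed by -0.53, Gbp5 by -0.58, Gbp6 by -0.36, Gbp7 by -0.40, Gbp8 by -0.43 and Gbp10 by -0.42, all without overlap of the groups. Gbp2 was the exception among those measured, with 120, 215 and 171 FPKM in Ctrl and 129, 113 and 138 FPKM with VHH-OD-Fc. Ctrl 1 lay inside the VHH-OD-Fc range for Gbp2, and its difference was -0.38 (SE 0.21). GBPs are close copies of each other, as are the IRG genes Tgtp1 and Tgtp2, so reads may have been split between them in ways the sources used here do not describe.

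The chemokine Cxcl9, which draws T cells through CXCR3, was at 38.2, 34.2 and 34.6 FPKM in Ctrl (mean 35.7 ± 2.24 SD) and at 18.5, 23.5 and 18.2 FPKM with VHH-OD-Fc (mean 20.1 ± 2.98 SD). The highest treated library stayed well below the lowest control. The difference was -0.81 (SE 0.12, limma adjusted p = 0.777) and lay between -0.92 and -0.74 over the alternative settings. In a limma fit that drew its spread from all 12 libraries, Cxcl9 and Ly6i had an adjusted p of 0.0988, the smallest there. Its relative Cxcl10 was less even, at 25.7, 9.81 and 8.52 FPKM in Ctrl and 7.41, 9.15 and 5.47 FPKM with VHH-OD-Fc. The groups overlapped for Cxcl10, and its difference of -0.77 (SE 0.40) became -0.31 without Ctrl 1.

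Ly6i, a membrane-anchored protein of the Ly6 family, was at 4.97, 3.48 and 4.38 FPKM in Ctrl (mean 4.28 ± 0.750 SD) and at 1.43, 1.46 and 0.753 FPKM with VHH-OD-Fc (mean 1.21 ± 0.4004 SD). The levels are low, with 53 to 290 reads per library, and the groups did not overlap. The difference was -1.26 (SE 0.18, limma adjusted p = 0.777). Ly6 genes are close copies, so the share of reads that belongs to Ly6i is uncertain.

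Regulators and surface targets of the pathway were on the same side. Irf1, the factor that carries much of the response, was at 68.1, 65.2 and 65.6 FPKM in Ctrl and 62.3, 53.3 and 53.1 FPKM with VHH-OD-Fc, a difference of -0.24 (SE 0.09). Socs1, the feedback inhibitor of JAK kinases, differed by -0.67 (SE 0.24), or by -0.44 without Ctrl 1, its highest library at 14.9 FPKM. Cd274, the ligand of PD-1, was at 24.6, 17.7 and 15.6 FPKM in Ctrl and at 12.8, 12.4 and 11.3 FPKM with VHH-OD-Fc. The groups did not overlap for any of these genes. The Cd274 difference was -0.60 (SE 0.16, limma adjusted p = 0.896), or -0.42 without Ctrl 1. Ifng itself, the gene of the cytokine, was below the filter, at 1.25, 1.58 and 0.936 FPKM in Ctrl and at 0.657, 0.598 and 0.507 FPKM with VHH-OD-Fc, with 40 to 104 reads per library. It too was higher in each Ctrl library than in any treated one, as a value outside the test.

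**Figure D2:**
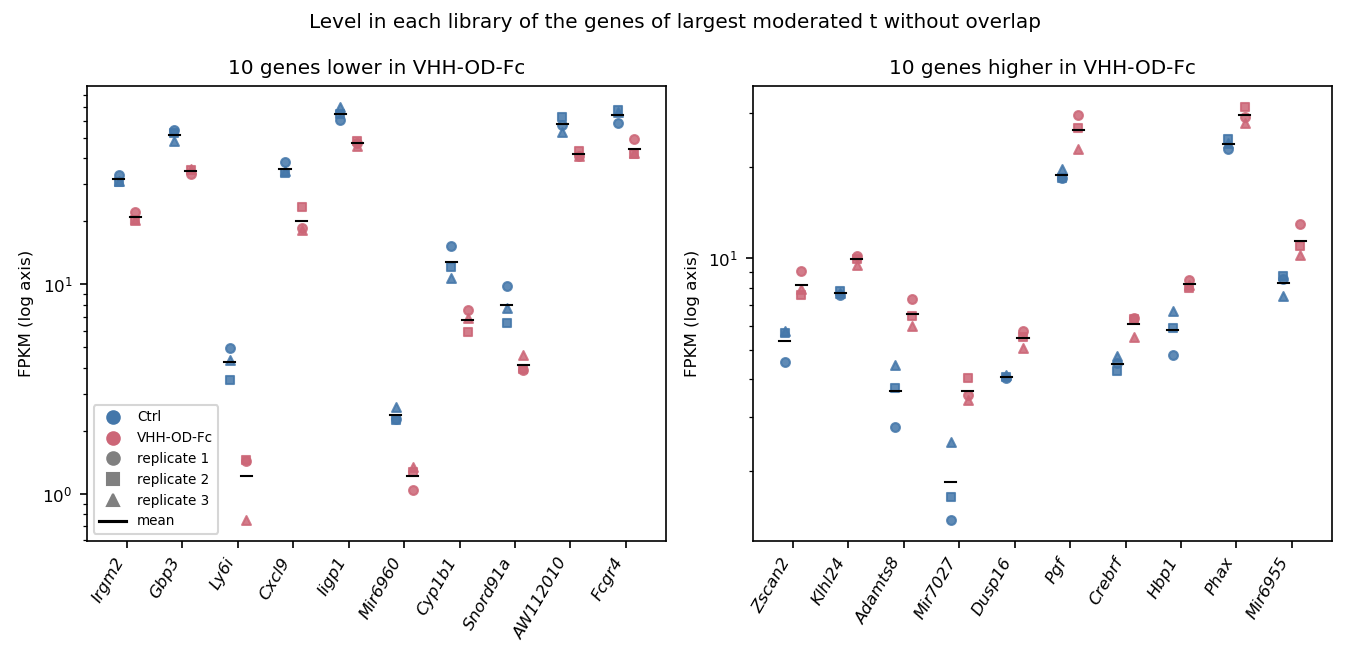
Level in each of the 6 libraries (FPKM, log axis) of the 10 genes lower and the 10 higher with VHH-OD-Fc of largest moderated statistic among genes whose groups do not overlap. Points are libraries, shapes are replicate numbers and bars are group means, and none of the 20 genes had an adjusted p under 0.777.

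Genes of the type I interferon response were lower too, with more weight on 1 library. Of 37 measured, 0 passed the test, 36 had a negative difference, the median was -0.33, and 18 (48.6%) did not overlap in the lower direction beside 6.97% of all genes. The mean log2 level of the list in Ctrl 1 exceeded the mean of the Ctrl libraries by 0.30, whereas Ctrl 2 and Ctrl 3 lay at -0.18 and -0.12 and the VHH-OD-Fc libraries at -0.24, -0.33 and -0.50. Without Ctrl 1 the median was -0.19, and 48.6% of the list did not overlap beside 10.2% of all genes. Ifi44l, an interferon-induced gene of the IFI44 family, was at 32.3, 28.6 and 24.7 FPKM in Ctrl and 19.7, 17.97 and 16.7 FPKM with VHH-OD-Fc, a difference of -0.62 (SE 0.12). Ifi44 followed it at -0.60 (SE 0.14) and Xaf1, an interferon-induced promoter of cell death, at -0.30 (SE 0.07). Zbp1, a sensor of Z-form nucleic acids, was at 41.7, 46.0 and 55.5 FPKM in Ctrl and 37.1, 34.9 and 34.7 FPKM with VHH-OD-Fc, a difference of -0.40 (SE 0.11). For none of these 4 genes did the groups overlap. Isg15, a ubiquitin-like modifier, shows the pull of Ctrl 1, with 186 FPKM there, 89.3 and 82.4 FPKM in the other Ctrl libraries and 79.5, 85.5 and 60.01 FPKM with VHH-OD-Fc. Its difference of -0.58 became -0.21 without that library.

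**Figure D3:**
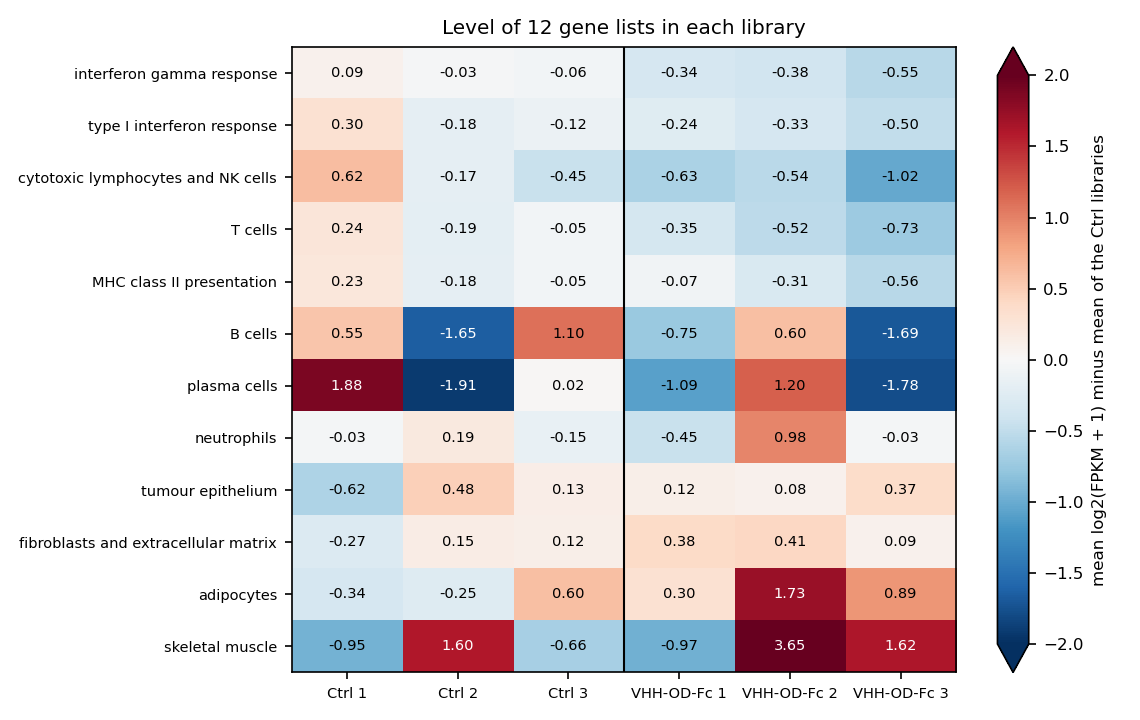
Mean level of 12 gene lists in each library, as log2(FPKM + 1) minus the mean of the 3 Ctrl libraries (colour and printed value), with Ctrl left of the line and VHH-OD-Fc right of it. The interferon gamma list is at 0.09, -0.03 and -0.06 in Ctrl and at -0.34, -0.38 and -0.55 with VHH-OD-Fc, while the muscle and plasma cell lists differ as much within a group as between groups.

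Genes of cytotoxic lymphocytes, which kill target cells with granzymes and perforin, were lower with VHH-OD-Fc, and many were low in all libraries. Of the 23 genes on the list 13 passed the filter, all 13 of these had a negative difference, 0 passed the test, and the median was -0.68. A low gene can pass the filter through the Ctrl libraries alone, so these counts describe the genes that passed and not the list. With no filter on low values, all 23 genes were negative and the median was -0.43. At a mean FPKM of at least 5, all 8 genes left were negative and the median was -0.73. For 7 of the 13 (53.8%) the groups did not overlap in the lower direction, beside 6.97% of all genes. Ccl5, a chemokine made by T and NK cells, was at 18.3, 20.9 and 20.8 FPKM in Ctrl (mean 20.0 ± 1.47 SD) and at 10.1, 11.1 and 5.78 FPKM with VHH-OD-Fc (mean 9.02 ± 2.85 SD), a difference of -1.11 (SE 0.22, limma adjusted p = 0.896). Its Ctrl libraries were close together, and it differed by -1.17 without Ctrl 1. Gzmb, encoding granzyme B, was at 26.9, 16.2 and 7.15 FPKM in Ctrl and at 5.92, 5.73 and 3.27 FPKM with VHH-OD-Fc. The groups did not overlap, but the spread within Ctrl exceeded the gap between Ctrl 3 and the treated libraries. The difference was -1.43 (SE 0.45) and became -1.02 without Ctrl 1. Prf1, encoding perforin, was at 6.56, 3.65 and 2.9 FPKM in Ctrl and at 1.84, 2.87 and 1.14 FPKM with VHH-OD-Fc. Its difference was -0.85 (SE 0.31), or -0.57 without Ctrl 1. The granzyme genes Gzmd and Gzme overlapped between the groups, and the Gzmd difference of -0.68 became -0.21 without Ctrl 1. Without Ctrl 1 the median of the list was -0.25. Tumour epithelial markers were low in Ctrl 1, where these genes were high, and the part of tumour cell content in the result was not tested.

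Most T cell genes were lower to a like degree. Of 24 genes 14 passed the filter, 13 of the 14 were negative, 0 passed the test, the median was -0.54, and 5 (35.7%) did not overlap in the lower direction beside 6.97% of all genes. With no filter, 23 of the 24 were negative and the median was -0.46. At a mean FPKM of at least 5 only 3 genes remained, 2 of them negative, and the median was -0.05. The median of the filtered list was -0.39 without Ctrl 1. Of the abundant genes, Trbc2 differed by -1.02, or by -0.71 without Ctrl 1, whereas Trbc1 and Thy1 overlapped between the groups. Cd3d, a chain of the T cell receptor complex, was at 3.71, 2.24 and 2.003 FPKM in Ctrl and 1.27, 1.44 and 0.787 FPKM with VHH-OD-Fc. Its difference was -0.74 (SE 0.21), or -0.54 without Ctrl 1. Tcf7, a factor of naive and stem-like T cells, was at 3.28, 4.26 and 4.8 FPKM in Ctrl and 2.21, 2.72 and 3.18 FPKM with VHH-OD-Fc, a difference of -0.46 (SE 0.15). Tcf7 had its lowest Ctrl value in Ctrl 1, where Cd3d had its highest. Cd8a, the coreceptor of cytotoxic T cells, was at 5.92, 3.33 and 4.25 FPKM in Ctrl and 3.38, 2.03 and 1.76 FPKM with VHH-OD-Fc. Its groups overlapped by 1 library each, and its difference was -0.70 (SE 0.23), or -0.52 without Ctrl 1. Foxp3 of regulatory T cells was below the filter, at 0.0604 to 0.628 FPKM. The summed T cell markers (Cd3d, Cd3e, Cd3g and Trac) were 10.2 to 17.3 FPKM in Ctrl and 5.23 to 8.64 FPKM with VHH-OD-Fc. Markers of NK cells (Ncr1 and Klrb1c) summed to 0.255 to 3.51 FPKM in Ctrl and 0.0648 to 1.26 FPKM with VHH-OD-Fc. Ptprc, a marker of all leukocytes, was at 3.86 to 6.62 FPKM in Ctrl and 3.35 to 4.48 FPKM with VHH-OD-Fc. The NK sum and Ptprc both overlapped between the groups.

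Inhibitory receptors followed the T cell genes. All 5 that passed the filter of 10 listed were negative, with a median of -0.41 and 3 lower without overlap (6.97% of all genes), and 0 passed the test. With no filter, all 10 were negative with a median of -0.32. Pdcd1, which encodes PD-1, was at 3.58, 3.96 and 3.38 FPKM in Ctrl and at 3.15, 2.05 and 1.83 FPKM with VHH-OD-Fc, a difference of -0.49 (SE 0.16, limma adjusted p = 0.896). Its treated libraries were all below its Ctrl libraries, with VHH-OD-Fc 1 close to Ctrl 3. Lag3 differed by -0.61 (SE 0.18) and Ctla4 by -0.40 (SE 0.13), both without overlap. Havcr2, encoding TIM-3, overlapped between the groups and differed by -0.41 (SE 0.18), or by -0.22 without VHH-OD-Fc 1. Tigit was the most abundant of the receptors per length, at 36.8 to 48.6 FPKM in Ctrl and 32.6 to 39.8 FPKM with VHH-OD-Fc. Its groups overlapped and its difference was -0.20.

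Antigen presentation was lower by smaller amounts. Of 17 MHC class I genes 16 were negative, with a median of -0.19 and 4 (23.5%) without overlap in the lower direction beside 6.97% of all genes. Among these 4 were Tapbp, the tapasin that loads peptides, at -0.22 (SE 0.08) and Tap2, a peptide transporter, at -0.24 (SE 0.10). The class I median was -0.13 without Ctrl 1 and -0.07 without VHH-OD-Fc 3. All 10 class II genes were negative, with a median of -0.32, or -0.18 without Ctrl 1 and -0.16 without VHH-OD-Fc 3. Ciita, the master regulator of class II, was at 7.46, 5.04 and 5.98 FPKM in Ctrl and 4.85, 4.30 and 3.87 FPKM with VHH-OD-Fc, without overlap. Its difference was -0.41 (SE 0.14), or -0.29 without Ctrl 1. Ctss, a protease that trims the class II invariant chain, differed by -0.42 (SE 0.12), also without overlap. The invariant chain Cd74 was among the most abundant transcripts, at 1277 to 1436 FPKM in Ctrl and 1029 to 1293 FPKM with VHH-OD-Fc, and its groups overlapped. None of these genes passed the test.

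B cell, plasma cell and lymph node genes varied between libraries of the same group by more than between groups. Cd79a, part of the B cell receptor, was at 3.93, 0.337 and 14.4 FPKM in Ctrl and at 0.715, 5.18 and 0.406 FPKM with VHH-OD-Fc. The immunoglobulin gene Iglc1 ranged from 0.605 to 71.2 FPKM within Ctrl and from 0.579 to 12.6 FPKM with VHH-OD-Fc. For 0 of 3 B cell genes, 12 plasma cell genes and 5 lymph node genes were the groups without overlap. The plasma cell median of -0.54 became 0.19 without Ctrl 1, so no direction can be read.

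Among macrophage genes most of the activation side was lower and the general markers were not separated. Fcgr4, an activating Fc receptor of macrophages and neutrophils, was at 59.1, 67.9 and 66.4 FPKM in Ctrl (mean 64.5 ± 4.74 SD) and at 49.3, 42.0 and 42.1 FPKM with VHH-OD-Fc (mean 44.5 ± 4.16 SD). No library crossed over, and the difference was -0.53 (SE 0.10, limma adjusted p = 0.896). Of 13 genes of classically activated macrophages 11 were negative, with a median of -0.32 and 4 (30.8%) without overlap in the lower direction beside 6.97% of all genes. The costimulatory ligand Cd86 was at 6.34, 5.79 and 6.68 FPKM in Ctrl and 4.62, 4.4 and 5.11 FPKM with VHH-OD-Fc, a difference of -0.35 (SE 0.09). Cd80, its partner, was at 2.79, 1.61 and 1.80 FPKM in Ctrl and 1.02, 0.800 and 1.34 FPKM with VHH-OD-Fc. Both costimulators were lower in every treated library. Ccl5, given above with the cytotoxic genes, is also on this list. Nos2 overlapped between the groups, with 9231 to 12869 reads in Ctrl and 5380 to 15815 with VHH-OD-Fc. The list's median was -0.47 without VHH-OD-Fc 2, -0.52 without Ctrl 3 and -0.16 without VHH-OD-Fc 1. The marker sum of Adgre1, Csf1r, C1qa and C1qb was 1060, 665 and 597 FPKM in Ctrl and 728, 688 and 541 FPKM with VHH-OD-Fc, with Ctrl 1 alone above the rest.

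Arginase 1, the enzyme of alternatively activated macrophages that depletes arginine, was lower as well. Arg1 stood at 163, 163 and 127 FPKM in Ctrl (mean 151 ± 20.8 SD) and at 87.2, 56.5 and 97.6 FPKM with VHH-OD-Fc (mean 80.5 ± 21.4 SD). The groups did not overlap. The Arg1 difference was -0.93 (SE 0.22, limma adjusted p = 0.896), or -0.70 without VHH-OD-Fc 2. It was the exception on its list, since of 20 genes of alternatively activated and tissue macrophages 1 was lower without overlap (5%, beside 6.97% of all genes) and the median was -0.14, or 0.09 without Ctrl 1. Neutrophil genes depended on VHH-OD-Fc 2. S100a9, a calcium-binding alarmin, was at 595, 604 and 415 FPKM in Ctrl and at 308, 1253 and 582 FPKM with VHH-OD-Fc, and the median of 24 neutrophil genes was 0.19 with that library and -0.30 without it.

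The plot of all lists shows where the measured groups of genes lay. Interferon, T cell and cytotoxic lists stood on the lower side, with muscle and fat on the higher side, and most lists of cell state were near 0.

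**Figure D4:**
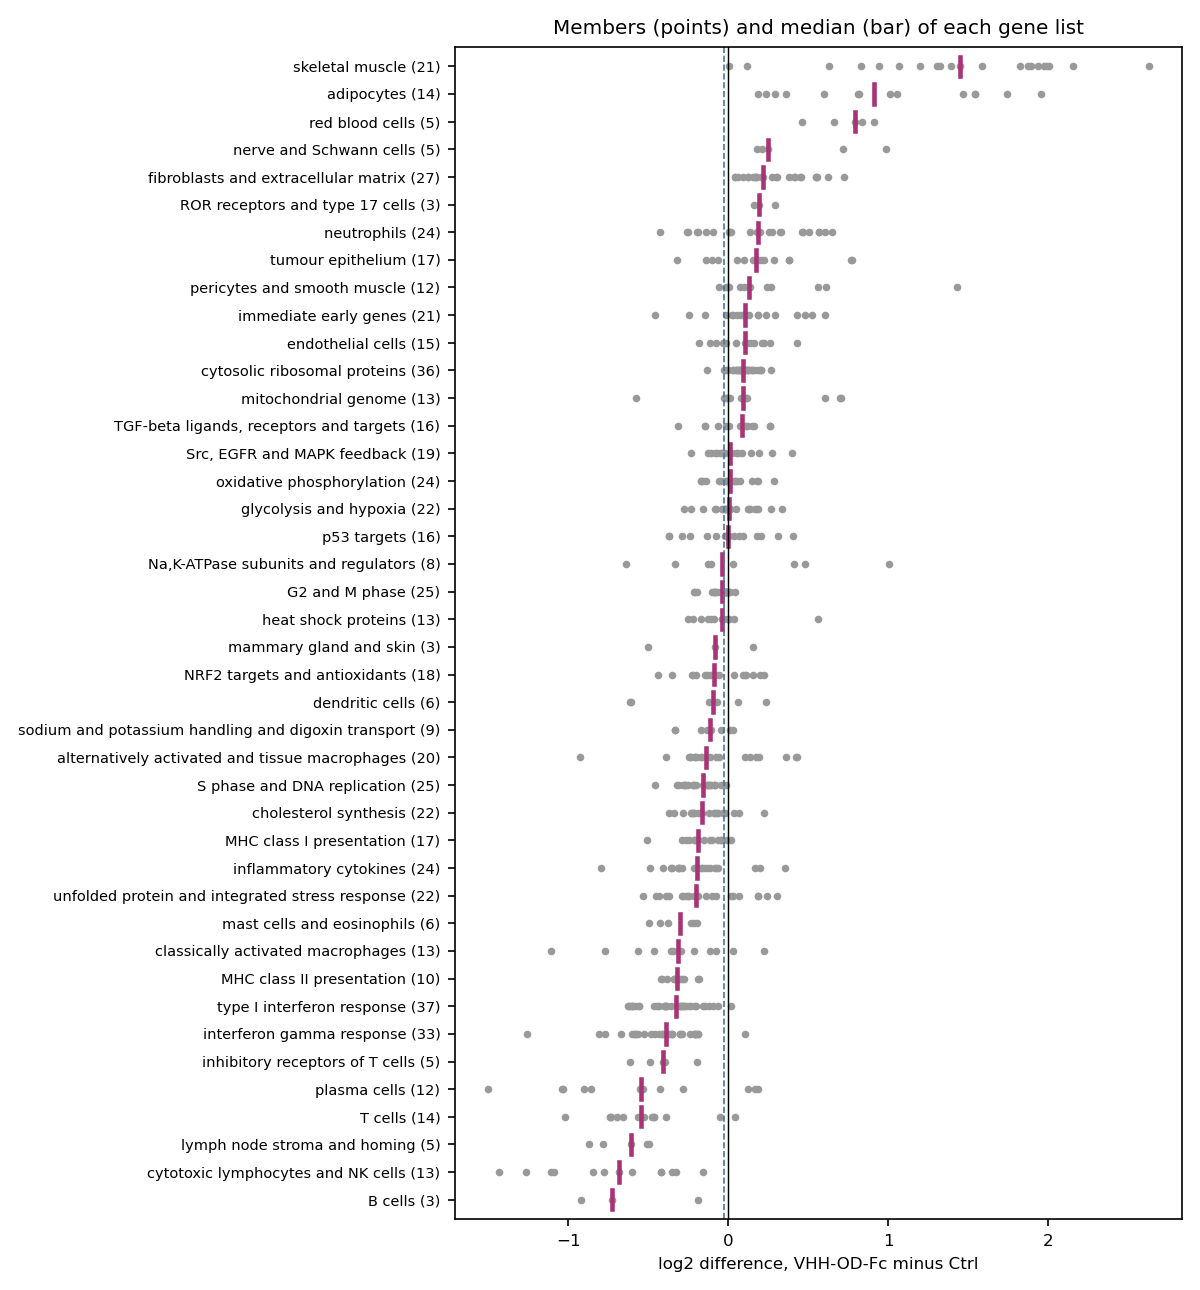
Difference between VHH-OD-Fc and Ctrl (log2) of each measured member (grey points) and the median (bar) of 42 gene lists, with the number of members tested in brackets. The dashed line is the median of all genes tested, -0.02, and the medians run from -0.72 for B cells to 1.45 for skeletal muscle.

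Tumour cell genes did not separate the groups. Epcam, an adhesion molecule of epithelium, was at 14.3, 162 and 98.0 FPKM in Ctrl and at 109, 84.3 and 129 FPKM with VHH-OD-Fc. The treated libraries lay between the extremes of Ctrl, and the difference of 0.77 (SE 0.83) became -0.25 without Ctrl 1. Mki67, a marker of cycling cells, was at 24.4, 16.4 and 20.5 FPKM in Ctrl and 22.6, 20.6 and 17.1 FPKM with VHH-OD-Fc, a difference of -0.01 with a 95% interval from -0.41 to 0.38. The 25 genes of G2 and M phase had a median of -0.04 with 0 outside the overlap. Genes of S phase differed a little more, since all 25 measured were negative, the median was -0.16 and 9 (36%) did not overlap beside 6.97% of all genes. Mcm4, a subunit of the replicative helicase, was at 32.0, 30.5 and 28.3 FPKM in Ctrl and 24.3, 23.3 and 27.1 FPKM with VHH-OD-Fc, a difference of -0.27 (SE 0.09). Rrm2, a subunit of ribonucleotide reductase, differed by -0.31 (SE 0.10) and Mcm3 by -0.22 (SE 0.08). Without Ctrl 1 the median was -0.12, and 48% of the S phase genes did not overlap beside 10.2% of all genes.

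Fibroblast genes were on the higher side, while endothelial genes, also of the stroma, were mixed. All 27 genes of fibroblasts and extracellular matrix were positive, with a median of 0.22, and 4 (14.8%) did not overlap in the higher direction beside 3.40% of all genes. Lum, encoding the matrix proteoglycan lumican, was at 16.9, 18.9 and 16.96 FPKM in Ctrl (mean 17.6 ± 1.13 SD) and at 34.0, 38.9 and 19.7 FPKM with VHH-OD-Fc (mean 30.9 ± 9.94 SD), a difference of 0.72 (SE 0.24, limma adjusted p = 0.896). VHH-OD-Fc 3 was near the Ctrl libraries and the other treated libraries were well above them. Col6a3, a collagen VI chain, differed by 0.55 (SE 0.25), or by 0.26 without Ctrl 1. Fn1, encoding fibronectin, was at 337, 436 and 441 FPKM in Ctrl and 693, 452 and 459 FPKM with VHH-OD-Fc, so its difference of 0.38 became 0.18 without VHH-OD-Fc 1. Without Ctrl 1 the median of the list was 0.12 and without both Ctrl 1 and VHH-OD-Fc 2 it was 0.07. In that last setting 22.2% of the list did not overlap in the higher direction and 14.8% in the lower one, beside 12.6% and 17% of all genes. Rgs5, a pericyte gene, was at 6.86, 5.61 and 6.97 FPKM in Ctrl and 9.74, 14.7 and 7.73 FPKM with VHH-OD-Fc, a difference of 0.61 (SE 0.22), or 0.38 without VHH-OD-Fc 2. Of 15 endothelial genes 9 were positive and 0 were without overlap, and their median of 0.10 became -0.03 without Ctrl 1, -0.02 without VHH-OD-Fc 2 and -0.09 without both.

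Genes of fat and muscle around the tumour had the largest list medians of either sign, and their levels were uneven between libraries. Adipoq, the adipocyte hormone adiponectin, was at 1.32, 1.02 and 6.46 FPKM in Ctrl and at 4.70, 14.8 and 8.62 FPKM with VHH-OD-Fc, a difference of 1.54 (SE 0.58) with overlap. It became 1.18 without VHH-OD-Fc 2 and 0.93 without both, and ranged from 0.49 to 2.14 over the alternative settings. All 14 adipocyte genes were positive with a median of 0.91, or 0.46 without VHH-OD-Fc 2 and 0.40 without both that library and Ctrl 1. Acta1, which encodes skeletal muscle actin, was at 0.323, 148 and 9.97 FPKM in Ctrl and at 1.45, 1437 and 144 FPKM with VHH-OD-Fc. Each group spanned more than the gap between the groups, and for 0 of 21 muscle genes was there no overlap. Their median of 1.45 became 0.40 without VHH-OD-Fc 2 and -0.15 without Ctrl 1 and VHH-OD-Fc 2. FPKM values are relative to the library's total, and the part of such tissue in the other results was not tested.

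Genes around the sodium pump and digoxin transport gave small or uneven differences. Atp1b1, a beta subunit, was at 12.0 FPKM in Ctrl 1 and at 1.62 to 3.44 FPKM in the other 5 libraries, and its difference of -0.64 (SE 0.51) became -0.05 without Ctrl 1. The list of 8 pump subunits and regulators had a median of -0.04, with 2 genes without overlap in the lower direction (6.97% of all genes), among them Fxyd5, a regulator of the pump, at 98.2, 92.7 and 95.2 FPKM in Ctrl and 84.4, 91.5 and 89.8 FPKM with VHH-OD-Fc. Fxyd5 differed by -0.11 (SE 0.07), with VHH-OD-Fc 2 just under Ctrl 2. Abcb1a and Abcb1b, the drug efflux pumps that carry digoxin, differed by -0.33 (SE 0.14) and -0.34 (SE 0.14), and Abcb1b overlapped.

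Lists of cell state gave small medians. Of 22 cholesterol synthesis genes 19 were negative (median -0.17), and 2 (9.09%) were lower without overlap, near the 6.97% of all genes. Their median was -0.10 without Ctrl 1, -0.11 without VHH-OD-Fc 2 and -0.05 without both. The lower ones included Mvd, a decarboxylase of the mevalonate pathway, at -0.34 (SE 0.10). Of 22 genes of the unfolded protein and integrated stress response 15 were negative (median -0.20, or -0.07 without Ctrl 1), with 3 (13.6%) lower and 1 (4.55%) higher without overlap, beside 6.97% and 3.40% of all genes. Phgdh, the first enzyme of serine synthesis, was at 86.5, 105 and 82.1 FPKM in Ctrl and 69.5, 59.6 and 79.6 FPKM with VHH-OD-Fc, a difference of -0.39 (SE 0.14). Its highest treated library lay just under its lowest control. The 36 cytosolic ribosomal protein genes had a median of 0.09, or 0.03 without VHH-OD-Fc 2, and the 22 genes of glycolysis and hypoxia one of 0.01.

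The higher genes of largest statistic shared no list. Klhl24, an adaptor of a ubiquitin ligase, was at 7.56, 7.82 and 7.67 FPKM in Ctrl and 10.2, 9.97 and 9.53 FPKM with VHH-OD-Fc, a difference of 0.33 (SE 0.07, limma adjusted p = 0.896). Dusp16, a phosphatase of JNK and p38 kinases, was at 4.03, 4.07 and 4.12 FPKM in Ctrl and 5.75, 5.52 and 5.08 FPKM with VHH-OD-Fc, a difference of 0.35 (SE 0.08). Both genes were even within Ctrl and higher in every treated library. Pgf, encoding placental growth factor, a ligand of the receptor FLT1, was at 18.3, 18.4 and 19.6 FPKM in Ctrl (mean 18.8 ± 0.746 SD) and at 29.7, 26.8 and 22.9 FPKM with VHH-OD-Fc (mean 26.4 ± 3.40 SD), a difference of 0.47 (SE 0.11). Adamts8, a secreted metalloprotease, differed by 0.71 (SE 0.15), the zinc finger gene Zscan2 by 0.54 (SE 0.11) and Hbp1, a repressor of cell cycle genes, by 0.45 (SE 0.11). Crebrf, a regulator of CREB3, differed by 0.36 and Phax, an exporter of small nuclear RNA, by 0.30. The annotated microRNA hairpins Mir7027 and Mir6955 were also among these 10, at 0.74 and 0.41, but only 5 to 15 reads lay behind each value of Mir7027, and poly(A) libraries do not measure mature microRNAs.

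Besides interferon genes, the lower genes of largest statistic included Cyp1b1, an enzyme that oxidises oestrogens and xenobiotics. It was at 15.3, 12.1 and 10.8 FPKM in Ctrl (mean 12.7 ± 2.31 SD) and at 7.54, 5.94 and 6.89 FPKM with VHH-OD-Fc (mean 6.79 ± 0.803 SD), a difference of -0.81 (SE 0.14, limma adjusted p = 0.896). All treated libraries were below all controls. AW112010, a transcript induced in activated immune cells, was at 57.7, 63.1 and 53.3 FPKM in Ctrl and 41.1, 43.5 and 41.2 FPKM with VHH-OD-Fc, a difference of -0.46 (SE 0.08). The small nucleolar RNA gene Snord91a (-0.80) and the hairpin Mir6960 (-0.61) rested on 17 to 46 and 3 to 8 reads per library.

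The OD arm could also be read in the presence of the PD-1 arm, as VHH-OD-PD-1-Fc minus VHH-PD-1-Fc, from 6 libraries that share none with the comparison above. In that contrast 85 of 13281 genes (0.640%) were called in a limma fit of all 12 libraries, and the doses differ from those above. The 3 libraries with both arms varied least, with a median SD over genes of 0.0703 on the log2 scale against 0.121 to 0.24 in the other groups. When they were averaged to 1 sample, 2 genes were called, and without any 1 of them 6. The medians of the interferon lists had the opposite sign there, most evenly for type I. The type I list had a median of 0.69 with 36 of 37 genes positive, beside -0.33 without the PD-1 arm, and 57.8% of all genes were positive. It stayed between 0.59 and 0.70 with any 1 library of these 6 left out. The interferon gamma list had a median of 0.38 with 30 of 33 positive, beside -0.39, and leaned on 1 library. Its mean log2 level was 3.91, 3.13 and 4.01 in VHH-PD-1-Fc 1 to 3 and 4.09, 4.10 and 4.11 in VHH-OD-PD-1-Fc 1 to 3. Without VHH-PD-1-Fc 2 its median was 0.0877 with 20 of 33 positive, beside 53.2% of all genes. The cytotoxic list had a median of 0.09 beside -0.68, and the T cell list -0.14 beside -0.54. The T cell median was 0.17 without VHH-PD-1-Fc 1 and -0.40 without VHH-PD-1-Fc 2.

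**Figure D5:**
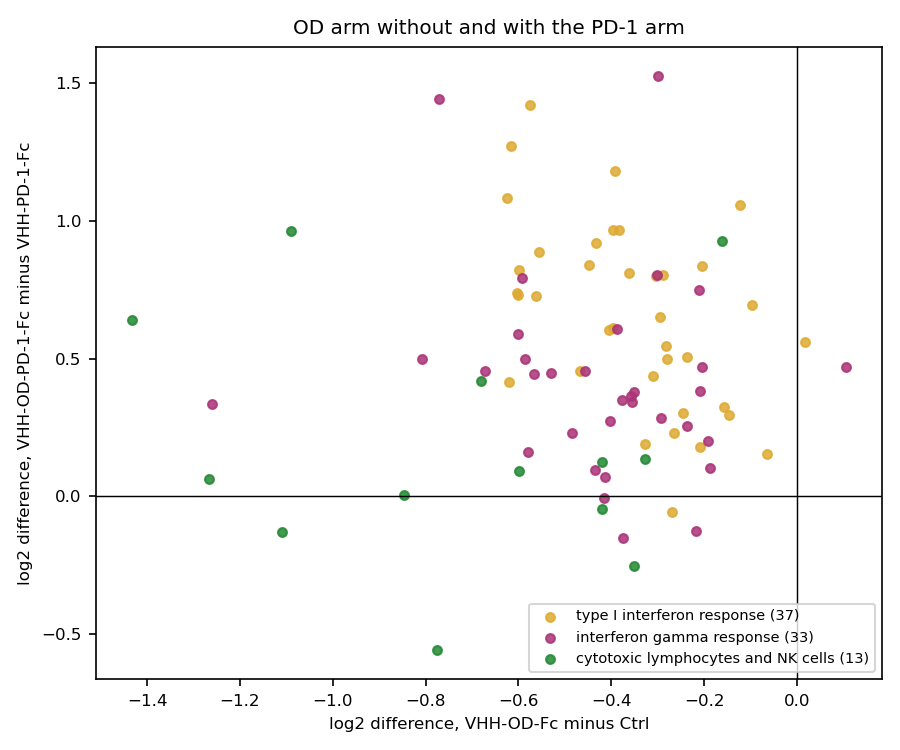
Difference of VHH-OD-Fc from Ctrl (horizontal axis, log2) against that of VHH-OD-PD-1-Fc from VHH-PD-1-Fc (vertical axis, log2), 1 point per gene of 3 lists, with lines at 0. Most of the 37 type I and 33 interferon gamma genes lie left of 0 and above 0, with vertical medians of 0.69 and 0.38.

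The difference between both effects of the OD arm was tested gene by gene in the fit of 12 libraries, and 12 of 13281 genes were called (0.0904%), 9 of them with a larger value in the presence of the PD-1 arm (0.0678%). Of the 12, 5 were on the type I or interferon gamma lists, 3 of 37 and 2 of 33. Cxcl9 was at 14.95, 16.4 and 18.3 FPKM with VHH-PD-1-Fc and at 24.1, 23.1 and 24.1 FPKM with VHH-OD-PD-1-Fc, so the OD arm went with 0.50 more on the log2 scale there and with -0.81 alone. The difference between these was 1.31 (SE 0.16, limma adjusted p = 0.0159). Ifi44 gave 1.42 (SE 0.18, adjusted p = 0.0159), Cmpk2, a mitochondrial nucleotide kinase induced by interferon, gave 1.89 (SE 0.26, adjusted p = 0.0289), Ly6i gave 1.60 (SE 0.23, adjusted p = 0.0302) and Xaf1 gave 0.95 (SE 0.15, adjusted p = 0.0479). For Ly6i the levels with the PD-1 arm were low, 0.218 to 0.416 FPKM with VHH-PD-1-Fc and 0.520 to 0.821 FPKM with VHH-OD-PD-1-Fc. Most of these calls did not hold in other treatments of the libraries with both arms. When these 3 were averaged to 1 sample, 2 genes remained past the threshold and Cxcl9 had an adjusted p of 0.748, and 2 genes were called without any 1 of them. Without 1 VHH-PD-1-Fc library the number was 67, 69 or 96. Without Ctrl 1, 2 or 3 it was 6, 7 or 3, and without VHH-OD-Fc 1, 2 or 3 it was 6, 5 or 5. The libraries with the PD-1 arm stand apart from those without it, so a batch and that arm cannot be told apart.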

How the data were processed

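Per the labels' protocols, libraries were made from poly(A) RNA and read as 150 bp pairs. The submitters' processing notes name fastp 0.22.0, HISAT2 2.2.1 and the human build GRCh38, although the table holds mouse symbols. The FPKM values are as the authors deposited them. Not given in the sources used here are the program, annotation and strand setting behind them. Whole reads were recovered from the FPKM steps with GENCODE M21 exon lengths (symbols matched for 95.6% of the genes tested). Each mate appears to count as 1 read, since even numbers of reads were the commoner ones (in Ctrl 1, 1181 genes at 2 reads and 800 at 1). Intervals cover the spread between libraries only.

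Values were put on the log2(FPKM + 1) scale (pseudocount 1) and tested two-sided in R 4.3.3 with limma 3.58.1, with a variance trend and no covariates (4 residual and 2.53 prior degrees of freedom), and a gene was called when its Benjamini-Hochberg adjusted p was under 0.05. The code was tested on simulated data. Members, lists and tests were chosen with earlier results of these data known. Named genes were the 10 per direction of largest moderated t without overlap (pseudogenes, unnamed gene models and antigen receptor segments left out), up to 4 members of smallest p and 2 of highest level per list, and a set list of genes, some of which are not reported here. Cxcl10 and any other gene outside this rule were chosen after their values were seen. The alternatives were another pseudocount, other filters, scalings, weights, the replicate number as a block, a fit of all 12 libraries, each library left out, and, added after the data were seen, limma voom on recovered reads, counts of overlap without Ctrl 1 or VHH-OD-Fc 2, and the contrast with the PD-1 arm without 1 library or with the libraries of both arms averaged.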

Additional observations from a re-analysis of the deposited data

Results flagged for a closer look

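The effect of the OD arm with the PD-1 arm differed from its effect alone for 12 genes in the limma fit of all 12 libraries, by the test of the difference itself on log2(FPKM + 1). Of the interferon lists 3 of 37 type I and 2 of 33 interferon gamma genes were among them, namely Cxcl9 at 1.31, Ifi44 at 1.42, Cmpk2 at 1.89, Ly6i at 1.60 and Xaf1 at 0.95. These 5 were not called with the libraries of VHH-OD-PD-1-Fc averaged to 1 sample (limma adjusted p from 0.748 to 0.9997) or with the replicate block (0.0567 to 0.0782). The tight junction gene Cldn6 was at 3.43, the AP-1 gene Jun at 1.36, the kinesin gene Kif21b at 2.66 and Atmin at 1.61. The integrin gene Itgb5 was at -1.10 and the gene model Gm38317 at -1.94. Kif21b and Atmin were the 2 genes that were also called when the libraries of VHH-OD-PD-1-Fc were averaged to 1 sample. The cause of these differences was not tested.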

How the results depend on the processing

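No gene was called between VHH-OD-Fc and Ctrl in any of the 17 other settings or in limma voom on recovered reads, with smallest adjusted p-values from 0.0806 (no filter on low values) to 0.999 and between 345 and 1632 genes at an unadjusted p under 0.05. Whether the replicate numbers pair the libraries is not stated by the labels. Same-numbered deviations from the group means correlated at 0.10, -0.16 and 0.19, and differently numbered ones at -0.48 to 0.45. Deviations within a group of 3 libraries sum to 0, so these values cannot decide it. The fit with the replicate block called 0 genes as well. For the difference from additivity, 12 genes became 2 with the replicate block and 2 when the libraries of VHH-OD-PD-1-Fc were averaged to 1 sample, and between 2 and 96 when 1 library was left out. For the OD arm with the PD-1 arm, 85 genes became 2 with that averaging and between 6 and 538 when 1 library of these groups was left out. Of 1745 values of 98 genes under alternatives, 11 had the opposite sign. They were Acta1 at -1.10 without Ctrl 1 and VHH-OD-Fc 2 (up to 5.14 when 1 library was left out), Epcam at -0.25 without Ctrl 1 (up to 1.46 without 1 library) and -0.0871 without both, and S100a9 at -0.32 without VHH-OD-Fc 2 (up to 0.69 without 1 library) and -0.24 without both. Mki67 was at 0.0174 with median-of-ratios scaling, 0.0118 with quantile normalization, 0.0523 with weights, 0.12 without Ctrl 1, 0.0925 without VHH-OD-Fc 3 and 0.0949 without Ctrl 1 and VHH-OD-Fc 2. The cause was not tested. Of 754 list medians 29 moved by more than the spread. Several were of the inhibitory receptor list, whose median ran from -0.69 to -0.30. The cytotoxic list moved to -0.25 without Ctrl 1. Genes with few reads, such as Mir6960 with 3 to 8 per library, are also limited by counting error.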
